A study of Trichoderma reesei with 12 samples.

Results

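The genes described are 5 genes of siderophore biosynthesis in the filamentous ascomycete Trichoderma reesei that lie apart from the siderophore gene cluster. They were chosen by name, as the genes to which the study gives the names SidA (TrB0062C), SidC (TrB0063W), SidI (TrD0538W), SidL (TrF0144W) and AmcA (TrG0694W). All 5 were among the 10879 genes measured and all 5 were among the 8895 genes with enough reads for a test. RNA depleted of ribosomal RNA was sequenced from mycelium that had grown 96 h in liquid cellulose medium at 28 °C, kept either dark throughout (DD) or lit throughout (LL). The strains were the wild-type QM6a and Δrgs4, in which the gene of the regulator of G-protein signaling RGS4 was replaced by a hygromycin resistance gene in the QM6a background. The 4 groups, namely wild-type DD, Δrgs4 DD, wild-type LL and Δrgs4 LL, had 3 libraries each, from separate cultures. A single Δrgs4 strain was sequenced, in which the study's qPCR pointed to more than one copy of the deletion cassette. The study then crossed this strain, and among the progeny the growth defect on glucose went with the deletion.

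Siderophores are small iron chelators that fungi make from ornithine when iron is scarce. In Aspergillus fumigatus, from which the names are taken, SidA hydroxylates ornithine in the first committed step, and the pathway then splits. On one branch the hydroxyornithine is acetylated, a reaction to which SidL contributes, and joined by the non-ribosomal peptide synthetase SidC to ferricrocin, which stays in the cell and stores and distributes iron. On the other branch SidI activates mevalonate as its coenzyme A ester, SidH and SidF turn it over and transfer it to hydroxyornithine, and the synthetase SidD builds fusarinine C, which is secreted to take up iron. AmcA carries ornithine out of the mitochondrion and so supplies both branches. In T. reesei the genes for SidD, SidF and SidH lie in the cluster TrE0011C to TrE0016W together with an esterase gene and transporter genes, whereas the genes followed here lie elsewhere.

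Of these 5 genes, 3 passed the test between light and darkness in the wild-type, where 36.9% of all tested genes did. There, transcript levels of SidC were 2.76-fold lower in LL than in DD and those of SidL 1.76-fold lower, while those of AmcA were 1.78-fold higher. In Δrgs4 SidC was 2.82-fold lower in LL. Between Δrgs4 and the wild-type 0 of the 5 genes passed both thresholds, in LL, where 2.11% of all tested genes did, and in DD, where 0.0899% did, so that 0 of 5 is near the background. For comparison, all 6 cluster genes were higher in LL than in DD in the wild-type and all 6 were lower in LL when rgs4 was deleted.

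Values are given as normalized counts, that is reads after division by a library's size factor. Genes with 10 reads or more in 3 or more libraries were tested, a filter that SidI met with little to spare. The 12 libraries held 11.25 to 15.84 M (mega) reads on genes. Differences were tested with limma on log2(normalized counts + 2) over all tested genes, with all 12 libraries in 1 fit, and p-values were adjusted after Benjamini-Hochberg. A gene was called where the adjusted p was under 0.05 and the log2 fold change outside ± 0.58 (1.5-fold). Levels of different genes are not compared with each other, since the values are not corrected for gene length. As RNA is measured as a share of each library, less RNA of a gene per cell and fewer cells that express it cannot be told apart. The deleted gene rgs4 (TrG0496W) had 1618 to 1859 normalized counts in the 6 wild-type libraries and at most 4.80 in the 6 Δrgs4 libraries. Of all libraries Δrgs4 DD replicate 3 lay farthest from its group. Its median absolute deviation per gene was 0.138 on the log2 scale, against 0.0667 to 0.104 in the others. For SidL the light effect in Δrgs4 and the deletion effect in DD are given below with and without this library. Leaving it out moved the log2 fold change between the strains in DD from -0.10 to -0.02 for SidA and from 0.29 to 0.99 for SidI. The interaction of genotype and light moved from 0.22 to -0.10 for SidL.

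The gene at the entry of both branches, SidA, which encodes the ornithine monooxygenase, changed little. In DD it had 2027, 2172 and 2113 normalized counts in the wild-type libraries 1 to 3 and 2113, 2037 and 1750 in those of Δrgs4. In LL it had 1616, 1600 and 1742 in the wild-type and 1319, 1615 and 1522 in Δrgs4. In both strains every LL library lay below every DD library, and within each light condition the strains overlapped. Between LL and DD the log2 fold change was -0.35 (standard error 0.09, 95% interval -0.54 to -0.15) in the wild-type and -0.40 (standard error 0.09, 95% interval -0.60 to -0.21) in Δrgs4. The adjusted p were 0.00533 and 0.0022 in limma, and both changes lie inside the fold threshold, so that SidA was not called. In LL the mean of Δrgs4 was 89.9% of that of the wild-type and in DD 93.5%. The log2 fold changes between the strains were -0.16 (95% interval -0.35 to 0.04, adjusted p = 0.287 in limma) in LL and -0.10 (95% interval -0.30 to 0.09, adjusted p = 0.706 in limma) in DD.

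The gene of the ferricrocin synthetase, SidC, showed the clearest difference. Wild-type libraries 1 to 3 had 5821, 5963 and 6268 normalized counts in DD and 2200, 2084 and 2243 in LL. The Δrgs4 libraries had 5032, 5356 and 5441 in DD and 1781, 1943 and 1883 in LL. The LL values of both strains are far below all DD values, and the replicates differ by few percent, with a coefficient of variation from 3.78% to 4.38% in the 4 groups. LL levels were 36.2% of DD levels in the wild-type and 35.4% in Δrgs4. The log2 fold change was -1.47 (standard error 0.06, 95% interval -1.59 to -1.34) in the wild-type and -1.50 (standard error 0.06, 95% interval -1.62 to -1.37) in Δrgs4, with adjusted p of 4.03e-09 and 3.93e-09 in limma. A lower log2 fold change by light was found for 12.1% of the tested genes in the wild-type and for 11.5% in Δrgs4.

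Between the strains SidC differed by a small amount in the same direction in both light conditions. Every Δrgs4 library lay below every wild-type library, in DD and in LL. The means of Δrgs4 were 87.7% of those of the wild-type in DD and 85.9% in LL. The log2 fold change in LL was -0.22 (standard error 0.06, 95% interval -0.35 to -0.09) with an adjusted p of 0.0405 in limma, inside the fold threshold. In DD it was -0.19 (95% interval -0.32 to -0.06) with an adjusted p of 0.205 in limma. The adjusted p in LL rose above 0.05 when any 1 of the 6 LL libraries was left out (0.0576 to 0.118 in limma), and also without replicate 2 of wild-type DD (0.0605) or of Δrgs4 DD (0.0605). The interaction of genotype and light was -0.03 (95% interval -0.21 to 0.15, adjusted p = 0.896 in limma).

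**Figure D1:**
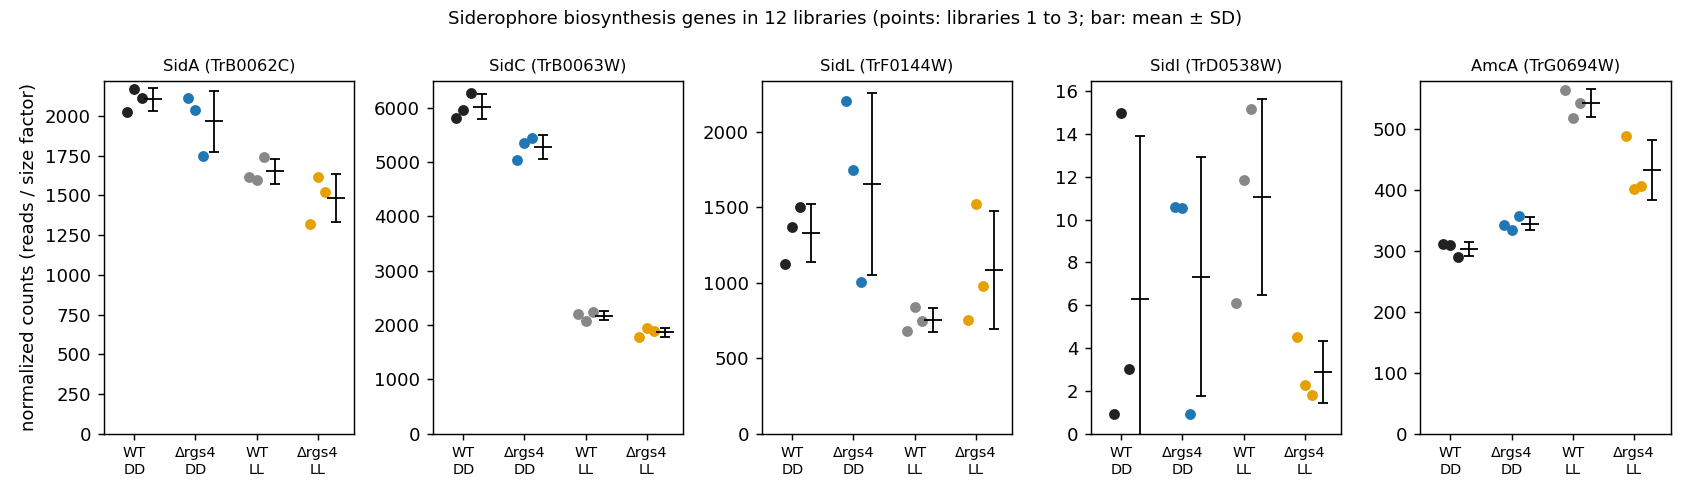
Normalized counts of each gene in the 12 libraries, on linear axes that start at 0. Points are libraries 1 to 3 of wild-type (WT) and Δrgs4 in darkness (DD) and light (LL), and bars give the mean and SD, with that of SidI in wild-type DD cut at 0. SidC lies between 5032 and 6268 in all DD libraries and between 1781 and 2243 in all LL libraries. SidI has at most 15.2 in any library.

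The acetyltransferase gene of the ferricrocin branch, SidL, was lower in LL as well, with more spread between libraries. In the wild-type it had 1122, 1370 and 1500 normalized counts in DD and 678, 839 and 744 in LL. In Δrgs4 it had 2202, 1747 and 1006 in DD and 756, 1520 and 976 in LL. The wild-type groups did not overlap, whereas in Δrgs4 the LL library 2 lay above the DD library 3. The spread of SidL was larger in Δrgs4, with a coefficient of variation of 36.5% in DD and 36.3% in LL, than in the wild-type with 14.4% and 10.7%. In the wild-type the log2 fold change between LL and DD was -0.81 (standard error 0.29, 95% interval -1.44 to -0.18, adjusted p = 0.029 in limma), and SidL was called. This call was lost without wild-type DD replicate 2 or 3 and without wild-type LL replicate 1 or 3, with adjusted p of 0.0651 to 0.0892 in limma and log2 fold changes of -0.81 to -0.72. It was kept in 17 of 21 alternatives. The fits that lost it share 1 estimate of the spread with the Δrgs4 libraries. With only the wild-type libraries in the fit, the standard error was 0.12 and the adjusted p 0.00048 in limma. In Δrgs4 the log2 fold change was -0.59 (95% interval -1.22 to 0.03, adjusted p = 0.0946 in limma). This value depended on single libraries. SidL was called without Δrgs4 DD replicate 3 (-0.92, adjusted p = 0.00727 in limma) and without Δrgs4 LL replicate 2 (-0.87, adjusted p = 0.0201 in limma), and the value was -0.35 (adjusted p = 0.324 in limma) without Δrgs4 DD replicate 1 and -0.37 (adjusted p = 0.314 in limma) without Δrgs4 LL replicate 1.

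The mean level of SidL in Δrgs4 was 124% of that in the wild-type in DD and 144% in LL, with overlapping libraries. The log2 fold change was 0.47 (95% interval -0.16 to 1.10, adjusted p = 0.33 in limma) in LL and 0.25 (95% interval -0.38 to 0.88, adjusted p = 0.8 in limma) in DD. These intervals hold differences of more than 1.5-fold, and the standard error of 0.29 compares with 0.06 to 0.09 for SidA, SidC and AmcA. In DD the value was 0.57 (adjusted p = 0.185 in limma) without Δrgs4 DD replicate 3 and 0.0049 without Δrgs4 DD replicate 1. In LL it was 0.19 (adjusted p = 0.738 in limma) without Δrgs4 LL replicate 2 and 0.70 (adjusted p = 0.173 in limma) without Δrgs4 LL replicate 1. The interaction was 0.22 (95% interval -0.67 to 1.11, adjusted p = 0.836 in limma).

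The gene named SidI, after the ligase that feeds mevalonate into the fusarinine branch, had few reads in every group. Whether this gene model encodes the functional ligase was not tested. In DD, 1, 14 and 3 reads were found in the wild-type libraries 1 to 3, and 11, 9 and 1 in those of Δrgs4. In LL, the wild-type had 5, 14 and 16 reads and Δrgs4 had 5, 2 and 2. The replicates within a group thus differ by up to 14 times, and at this depth changes of SidI are poorly determined. In normalized counts the 3 Δrgs4 LL libraries (4.52, 2.28 and 1.83) lay below the wild-type LL libraries (6.11, 11.8 and 15.2). The log2 fold change in LL was -1.39 with a standard error of 0.70 and a 95% interval from -2.94 to 0.16, and the adjusted p was 0.239 in limma. It was 0.29 in DD (95% interval -1.26 to 1.84, adjusted p = 0.918 in limma). Between LL and DD the values were 0.98 (adjusted p = 0.251) in the wild-type and -0.70 (adjusted p = 0.412) in Δrgs4, both from limma. The 6 cluster genes together had 39 to 51 reads in a wild-type DD library and 895 to 2613 reads in a wild-type LL library.

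AmcA, which encodes the ornithine carrier of the mitochondrion, was the only gene of the 5 that was called as higher in light. In DD it had 311, 309 and 291 normalized counts in the wild-type and 343, 335 and 357 in Δrgs4. In LL it had 565, 519 and 543 in the wild-type and 489, 401 and 407 in Δrgs4. None of the 4 groups overlapped with another, and the order of the levels was wild-type DD, Δrgs4 DD, Δrgs4 LL and wild-type LL. In the wild-type the log2 fold change between LL and DD was 0.83 (standard error 0.09, 95% interval 0.64 to 1.02, adjusted p = 9.05e-06 in limma). In Δrgs4 it was 0.32 (standard error 0.09, 95% interval 0.13 to 0.51, adjusted p = 0.0082 in limma), inside the fold threshold. Mean LL levels were 178% of DD levels in the wild-type and 125% in Δrgs4.

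The mean level of AmcA in Δrgs4 was 79.8% of that in the wild-type in LL and 114% in DD. The log2 fold change in LL was -0.33 (standard error 0.09, 95% interval -0.52 to -0.14, adjusted p = 0.0402 in limma), inside the fold threshold, and over the alternatives tried the adjusted p ranged from 0.0201 to 0.12. In DD it was 0.18 (95% interval -0.01 to 0.37, adjusted p = 0.421 in limma). The difference of both, the interaction, was -0.51 with a standard error of 0.12 and a 95% interval from -0.78 to -0.24. Its adjusted p of 0.0805 in limma missed the threshold, and 8.54% of the tested genes had a lower value of the interaction. Without Δrgs4 LL replicate 1 the interaction was -0.60 and was called (adjusted p = 0.0383 in limma). In the other 19 of 20 alternatives it was not called, and the adjusted p reached 0.166 in limma. Over all 20 the interaction ranged from -0.60 to -0.36.

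**Figure D2:**
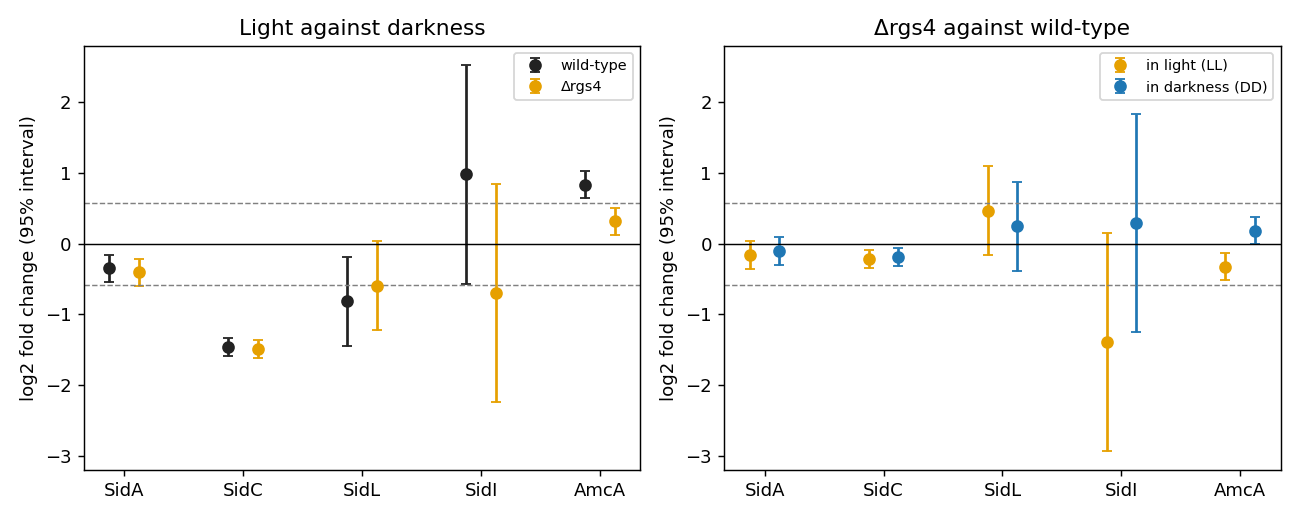
Log2 fold changes with 95% intervals of limma for the 5 genes, on the left for light against darkness in the wild-type and in Δrgs4 and on the right for Δrgs4 against the wild-type in LL and in DD. Dashed lines mark ± 0.58. SidC reaches -1.47 and -1.50 by light in the 2 strains, and on the right the intervals of SidA, SidC and AmcA stay inside the dashed lines while those of SidL and SidI cross them.

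Counted together, 3 of the 5 genes were called between LL and DD in the wild-type, SidC and SidL as lower and AmcA as higher. Of all tested genes 36.9% were called in this comparison, 21.6% as lower and 15.3% as higher. The median log2 fold change of the 5 genes was -0.35, against -0.01 over all tested genes. The libraries did not overlap for 4 of the 5 genes, and for 68.1% of all tested genes. In Δrgs4 only SidC was called, as lower, where 36.2% of the tested genes were called and 22% as lower. There the median was -0.59 against -0.01 over all tested genes, and the libraries of SidA, SidC and AmcA did not overlap, as was found for 63% of all tested genes. By adjusted p alone SidA, SidC, SidL and AmcA passed in the wild-type and SidA, SidC and AmcA in Δrgs4, where 59.1% and 59.2% of the tested genes did.

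For the deletion itself 0 of the 5 genes were called in LL and 0 in DD, where limma called 2.11% and 0.0899% of all tested genes. For the interaction 0 of 5 were called, with 0.708% of all tested genes. By adjusted p alone SidC and AmcA passed in LL, where 8.94% of the tested genes did. In limma-voom the number called was also 0 in LL, in DD and for the interaction. Without adjustment, SidC and AmcA passed 0.05 in LL, SidC alone in DD, and AmcA alone for the interaction, where 26.4%, 12.4% and 17.5% of the tested genes passed in limma. The libraries of the strains did not overlap for SidC, SidI and AmcA in LL and for SidC and AmcA in DD, which was found for 34% and 16.5% of all tested genes. For 3 of the 5 genes (SidA, SidC and AmcA) the 95% interval stayed inside ± 0.58, in LL as in DD.

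The 6 cluster genes and 2 genes of iron uptake, to which the text of the study gives identifiers, were measured in the same libraries. The genes fet3a, ftr1a and ftr1b were not analysed here. The cluster genes were singled out on these same libraries, so that their direction is not independent evidence. The comparisons share libraries, and values are set side by side without a test between the lists. In Δrgs4 against the wild-type in LL all 6 were called as lower, with a median log2 fold change of -2.58 against -0.22 for the 5 genes outside the cluster and 0.02 over all tested genes. Between LL and DD all 6 were called as higher in the wild-type and 5 in Δrgs4. The iron transporter gene TrD0323C was 2.16-fold higher in LL than in DD in the wild-type (log2 fold change 1.11, adjusted p = 0.00467 in limma) and 2.23-fold lower in Δrgs4 (-1.15, adjusted p = 0.00391 in limma). For fet3b (TrD0040C), a multicopper oxidase of reductive iron uptake, the log2 fold change between LL and DD was -1.96 in the wild-type and -1.13 in Δrgs4, with adjusted p of 2.58e-05 and 0.00156 in limma. Among these 13 genes, SidC and fet3b thus were called as lower in light in both strains.

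To compare genes of the pathway directly, the ratio of 2 genes was taken within each library, in which gene length is the same for all libraries and cancels between groups. In the wild-type the log2 ratio of SidC to SidA was 1.46 to 1.57 in the DD libraries and 0.36 to 0.44 in the LL libraries. In Δrgs4 it was 1.25 to 1.64 in DD and 0.27 to 0.43 in LL. The ratio thus was lower in light by 1.12 on the log2 scale in the wild-type and by 1.09 in Δrgs4, and no LL library reached a DD library. SidA and SidC are numbered side by side. Of 2232 pairs of tested neighbours that point away from each other, 22.6% differed by light at least as much in the wild-type, in either direction. An exact two-sided permutation of the light labels within strains gave p = 0.005, the smallest p that the 400 splits allow, and an adjusted p of 0.00833 over the 5 ratios computed. All 5 ratios were chosen with the light effects of their genes in these same libraries known. Their p-values thus add no independent evidence to those effects. The ratio of SidL to SidC, both of the ferricrocin branch, was higher in light by 0.65 in the wild-type and by 0.90 in Δrgs4. Over the mean of both strains (exact permutation p = 0.01, adjusted p = 0.0125), SidC thus was lower in light by more than SidL. The wild-type libraries did not overlap (-2.37 to -2.06 in DD, -1.69 to -1.31 in LL). Those of Δrgs4 overlapped at their ends (-2.43 to -1.19 in DD, -1.23 to -0.35 in LL). For SidL to SidA the difference was -0.46 in the wild-type, where DD and LL libraries did not overlap, and -0.19 in Δrgs4, where they did. The mean over both strains did not pass (exact permutation p = 0.105, adjusted p = 0.105), and the strains were not tested singly. The mean difference over both strains was -0.33, and over 15 alternatives it ranged from -0.45 (without Δrgs4 DD replicate 3, exact permutation p = 0.03, unadjusted) to -0.23 (without Δrgs4 DD replicate 1, exact permutation p = 0.24, unadjusted). In 13 of the 15 the p stayed above 0.05, and the other exception was leaving out Δrgs4 LL replicate 2 (-0.43, exact permutation p = 0.035, unadjusted).

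For the synthetases of both branches, SidD of the cluster and SidC, the log2 ratio of SidD to SidC was -7.54 to -7.36 in wild-type DD and -3.47 to -1.45 in wild-type LL. In Δrgs4 it was -8.27 to -7.22 in DD and -5.18 to -3.43 in LL. The ratio thus was higher in light by 4.98 on the log2 scale in the wild-type and by 3.30 in Δrgs4. The test of the mean over both strains gave an exact permutation p of 0.005, the smallest possible (adjusted p = 0.00833). This p too adds no independent evidence, and SidD was in addition singled out on these libraries. By light SidD had also been called as higher and SidC as lower in both strains. The mean over both strains was 4.14, and it was 2.55 on the scale of the deposited values and 3.88 to 4.38 when 1 library was left out. In LL the ranges of both strains overlapped at their ends. The ratio of AmcA to SidA was higher in light by 1.18 in the wild-type and by 0.72 in Δrgs4 (exact permutation p = 0.005, adjusted p = 0.00833).

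**Figure D3:**
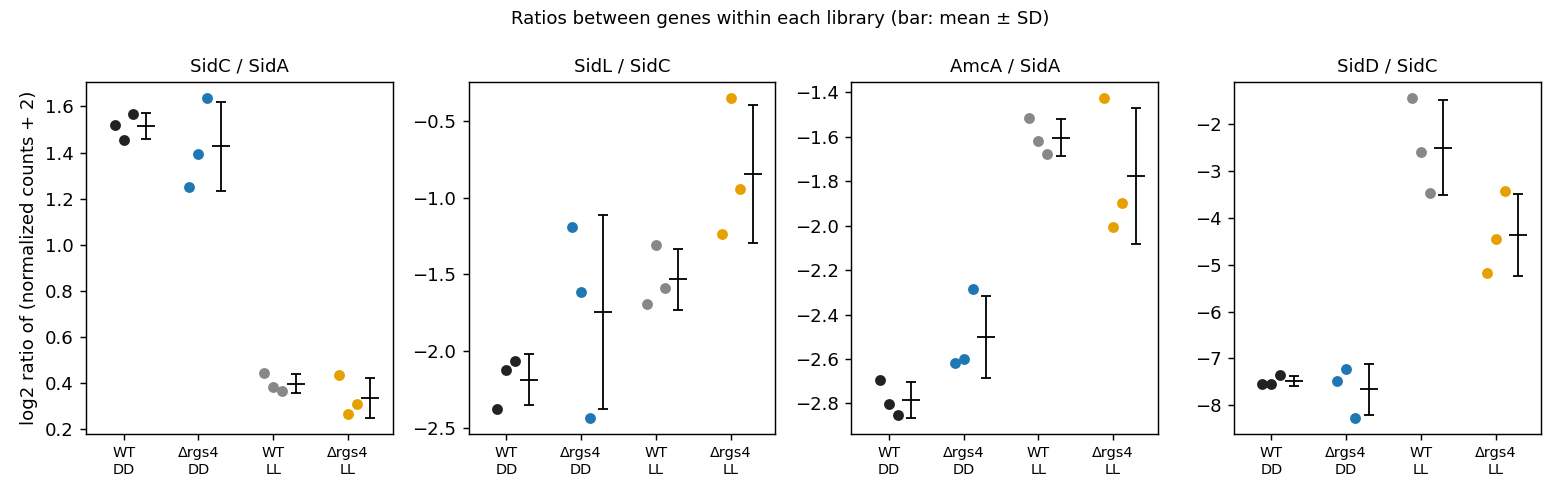
Log2 ratios of (normalized counts + 2) between 2 genes within each library, for the 4 groups, with the mean and SD as bars. SidC to SidA lies between 1.25 and 1.64 in all DD libraries and between 0.27 and 0.44 in all LL libraries, and SidD to SidC is below -7 in all DD libraries.

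SidA and SidC have consecutive numbers, TrB0062C and TrB0063W, and the letters of the identifiers place them on opposite strands, pointing away from each other. In the RefSeq annotation of another assembly of QM6a (v2.0), the models that the study pairs with them also follow each other with no gene between them. The genes on both sides of the pair went the other way. TrB0061C, beside SidA, had a log2 fold change between LL and DD of 1.03 in the wild-type and 1.10 in Δrgs4, and TrB0064C, beside SidC, of 0.99 and 1.22. All of these passed both thresholds, with adjusted p of at most 2.14e-06 in limma. TrB0065W followed with 0.35 and 0.47, inside the fold threshold. In total 12 of the 16 genes numbered within 2 places of the 5 genes could be tested. In the wild-type 4 of these 12 were called as higher in light and 0 as lower, and in Δrgs4 6 were called as higher and 1 as lower. Over all tested genes 15.3% were called as higher and 21.6% as lower in the wild-type, and 14.2% and 22% in Δrgs4. Between the strains 0 of the 12 were called in LL and 0 in DD.

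**Figure D4:**
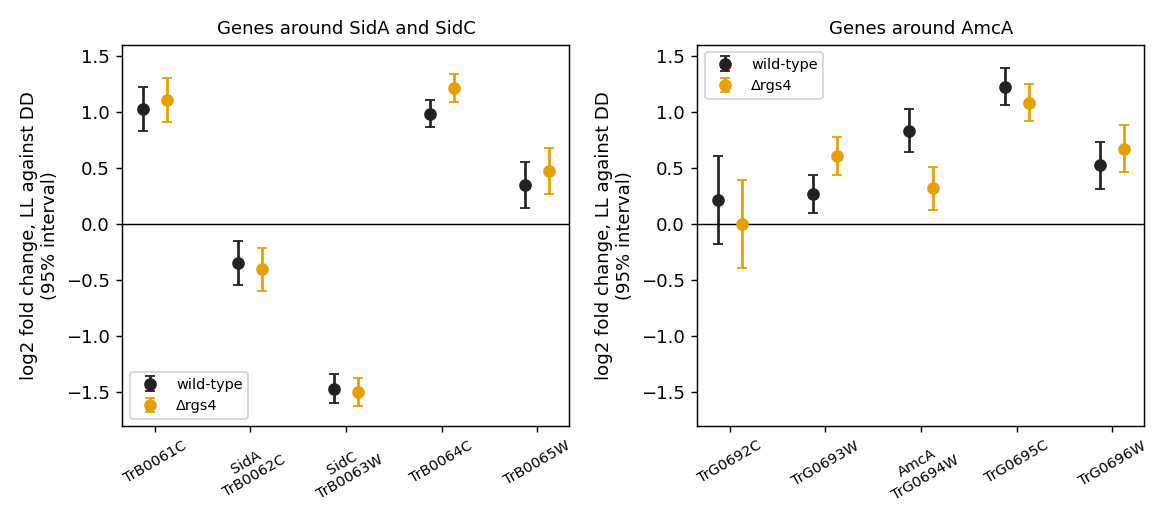
Log2 fold changes between LL and DD with 95% intervals of limma, for wild-type and Δrgs4, of the genes numbered around SidA and SidC and around AmcA, in the order of their numbers. SidC at -1.47 and -1.50 stands between TrB0064C at 0.99 and 1.22 and SidA at -0.35 and -0.40, whereas around AmcA the tested genes lie at or above 0 within their intervals.

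Next to AmcA, TrG0695C was higher in LL with a log2 fold change of 1.23 in the wild-type and 1.08 in Δrgs4 (adjusted p = 1.45e-07 and 4.25e-07 in limma). TrG0693W on the other side had 0.27 in the wild-type and 0.61 in Δrgs4, where only the latter was called. Beside SidL, TrF0143W was called as higher in LL in both strains (1.15 and 0.93), opposite to SidL. TrF0145C on the other side of SidL was not called, with 0.19 in the wild-type and 0.15 in Δrgs4 (adjusted p = 0.115 and 0.223 in limma). On one side of SidI the genes TrD0539C and TrD0540W had too few reads for a test, with group means of at most 2.39 normalized counts, and on the other side TrD0537C had group means of 507 to 752. No source used here states whether reads were counted by strand, and values of genes with overlapping transcripts are therefore uncertain.

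Over the 12 libraries the pattern of SidC was most like those of TrA0072C, TrD1314W and TrE0110C (Pearson's r of 0.997, 0.997 and 0.996 on the log2 scale). SidL was most like TrC0403C, TrE0292C and TrB1381C (r of 0.990, 0.989 and 0.987), and AmcA was most like TrF0622W, TrB1859C and TrE1270C (r of 0.986, 0.983 and 0.979). For SidA the highest r were 0.966, 0.966 and 0.959 with TrG0010C, TrG0942C and TrG0686C, and for SidI 0.827, 0.821 and 0.792 with TrC0048W, TrC0013C and TrD0774C. These values describe 12 points that share strain and light condition in groups of 3. SidA and SidC had an r of 0.895 over the 12 libraries, where SidC ranked 250 among all tested genes by likeness to SidA and SidA ranked 1421 by likeness to SidC. Among 2232 pairs of tested neighbours that point away from each other, 10.9% had an r as high over the libraries. For the deviations from the group means the r of SidA and SidC was 0.26, and 42.1% of the pairs had one as high.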

How the data were processed

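The authors trimmed and quality-filtered the reads with bbduk, aligned them with HISAT2 and counted them per gene with featureCounts. They deposited log2 values made by a variance stabilizing transformation of the normalized counts. The transformation was inverted here. The lowest value of the table stands for 0 reads, and the smallest step of each library stands for 1 read, which gave whole reads (within 0.01) for 100% of the values. A table of raw counts was not used, since its 12 columns carry sequencing identifiers that are not paired with samples.

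Genes that reached 10 reads in 3 or more libraries were fitted with limma 3.58.1 in R 4.3.3 on log2(normalized counts + 2), with 4 group means, a variance trend and Benjamini-Hochberg adjustment. Ratios were compared by exact two-sided permutation of light labels within strains, on the mean of the differences in both strains. The alternatives were other pseudocounts, factors, filters and weights, a replicate block, the deposited values and leaving out each library. P-values measure the spread between 3 cultures of 1 strain each. The genes described are all 5 genes of the set, the cluster and iron genes to which the study's text gives identifiers, the genes numbered within 2 places, and the 3 genes most correlated with each. Genes, lists and ratios were chosen with earlier results of these data known. Promoter motifs were not analysed here.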

Additional observations from a re-analysis of the deposited data

Results flagged for a closer look

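For AmcA the difference between the strains had opposite signs in the light conditions, since every Δrgs4 library lay above every wild-type library in DD and below every one in LL. The libraries did not overlap for 16.5% of all tested genes in DD and for 34% in LL. The difference in DD itself did not pass the test (0.18, 95% interval -0.01 to 0.37, adjusted p = 0.421 in limma). The interaction was -0.51 on the log2 scale, with an adjusted p of 0.0805 in limma, which misses the threshold.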

How the results depend on the processing

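Of 512 values of single genes under the alternatives, 498 kept their direction and stayed called or not called, 4 lost a call, 3 gained one and 7 reversed. A call needs both thresholds, so that this does not cover the adjusted p of SidC and AmcA in LL, which ranged from 0.029 to 0.118 and from 0.0201 to 0.12. By adjusted p alone, 2 genes instead of 0 passed for the deletion in LL and 3 instead of 1 for light in Δrgs4. Leaving out 1 library gave 2 to 3 genes called for light in the wild-type (2 without wild-type DD replicate 2 or 3 or wild-type LL replicate 1 or 3), 0 to 1 genes called for the interaction (1 without Δrgs4 LL replicate 1) and 1 to 2 for light in Δrgs4 (2 without Δrgs4 DD replicate 3 or Δrgs4 LL replicate 2). The reversed values concern differences that passed no test. For SidI the deletion effect in DD ranged from -0.26 to 1.01 when 1 library was left out. The interaction ranged from -0.14 to 0.027 for SidA, from -0.063 to 0.0048 for SidC and from -0.10 to 0.46 for SidL. Correlations of the deviations of libraries with the same replicate number ranged from -0.41 to 0.35, and 5 of 12 exceeded 0.1. They were not compared with those of differently numbered libraries and do not show whether the numbers pair the samples. With a replicate block the genes called were 0 for the deletion in LL, 0 in DD, 0 for the interaction, 3 for light in the wild-type and 1 in Δrgs4, and the adjusted p in LL were 0.0538 for SidC and 0.0547 for AmcA in limma. SidI gave no value where 10 reads were required in every library, and the interaction has no fit with only the libraries compared. Few reads limit SidI, and the spread between libraries limits SidL. The cause of these changes was not tested.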
